A study of Mus musculus with 2 samples.

Results

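Calpains are cysteine proteases that are switched on by calcium, and the lens is a tissue in which their activity has long been studied. The values below are those of 10 genes of the calpain family: Capn1, Capn2, Capn3, Capn5, Capn6, Capn7, Capn9, Capn10, Capn11 and the small subunit gene Capns1. They were taken from the 20655 genes that had a named probe, by matching the RefSeq transcript accession of each probe to a gene symbol, and all 10 were on the array. The members were chosen by their knockout minus control differences on these same arrays, with opposite values inside the family, so the differences are a description and carry no test. The arrays measured total RNA of the lens of newborn mice, at postnatal day 0, on a 1-colour Agilent mouse expression array with Cy3 labelling. The series held 1 array of Foxp1 knockout lens, with a deletion that the labels call lens-specific, and 1 array of lens from a wild-type litter mate, both of a mixed C57BL/6 background. Foxp1 encodes a forkhead transcription factor. The treatment text is the same for both samples and names Foxp1-flox/flox and Pax6-L-Cre, so the labels do not settle which of these alleles the control carried. The cells in which that Cre acts, and whether lenses of several animals were pooled, are not given in the labels.

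The classical calpains, Capn1 and Capn2, are heterodimers in which a large catalytic subunit pairs with the small subunit Capns1, and calpastatin, encoded by Cast, inhibits both of them. Other members lack the calcium-binding penta-EF-hand domain of the classical form, or are made in few tissues. In the rodent lens Capn3 gives rise to a splice form called Lp82, and overactive calpains cut crystallins and the membrane skeleton in rodent models of cataract.

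The values are processed signals, the brightness of a spot on a linear scale after background subtraction. For differences, the log2 of each signal was set relative to the 75th percentile of its array, which was 279.1 in knockout lens and 281 in control lens. A gene counted as measured when a probe was well above background on both arrays, and its difference was the mean over such probes. With 1 array per genotype no spread between animals could be estimated and no p-value is given, and a gene was called at a difference of at least 2-fold. Errors after ± are those that the extraction software gives for a single spot, which cover the reading of that spot and not differences between animals. Of the gene spots, 56.9% were well above background in knockout lens and 67.5% in control lens, and none was saturated (0 on each). Foxp1 itself had log2 differences of -1.84, -1.82 and -1.33 for its 3 probes, all lower on the knockout array. The 12 lens fibre markers listed for this work, crystallins and fibre membrane and filament genes, were all measured, with a median difference of -0.03.

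Promoter sequence is shown for Capn11, the calpain with the most negative difference, and for Capn3, the gene with a lens splice form. A window holds the 250 bases before a transcript start, from RefSeq on build GRCm38.p6, read 5′ to 3′ on the strand of the gene. Capitals mark the letters TGCTGA, a half-site of the Maf factors that drive lens genes, and would also mark TGTTTA, the core of forkhead sites. Both were searched on both strands, and their letters do not overlap in these windows. The windows are Capn11 at chr17:45659310-45659559 on the minus strand, and Capn3 at chr2:120463343-120463592 (start 1) and chr2:120476659-120476908 (start 2), both on the plus strand.
Capn11: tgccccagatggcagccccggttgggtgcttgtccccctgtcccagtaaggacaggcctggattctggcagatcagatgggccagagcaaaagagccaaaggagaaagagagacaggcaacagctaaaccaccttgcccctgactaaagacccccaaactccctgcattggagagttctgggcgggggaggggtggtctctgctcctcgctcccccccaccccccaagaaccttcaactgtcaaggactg
Capn3 start 1: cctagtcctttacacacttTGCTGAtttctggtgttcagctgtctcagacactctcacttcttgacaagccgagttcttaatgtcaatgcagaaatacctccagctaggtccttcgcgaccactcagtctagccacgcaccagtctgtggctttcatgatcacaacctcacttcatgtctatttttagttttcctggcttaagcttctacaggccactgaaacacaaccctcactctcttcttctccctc
Capn3 start 2: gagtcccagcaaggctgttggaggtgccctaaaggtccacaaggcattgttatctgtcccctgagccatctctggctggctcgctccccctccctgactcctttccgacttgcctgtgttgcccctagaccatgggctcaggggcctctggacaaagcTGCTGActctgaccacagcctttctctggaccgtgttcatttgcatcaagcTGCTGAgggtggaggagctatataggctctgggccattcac

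Of the calpain genes, 9 had a window in the RefSeq table, with 11 windows in all. Capn5 was not among them. The forkhead core was in 0 of the 11 windows, and 12% of all 32851 promoter windows of that length held it. The Maf half-site was in 3 of the 11, against 16.1% of all windows. It stood once in the Capn3 start 1 window, 231 bases before the start, and at 92 and 41 bases before the start in the Capn3 start 2 window. The third window was that of Capn2. These matches describe letters and not binding.

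Among the calpains, Capn5 was higher and Capn11 was lower on the knockout array, while the classical calpains and their small subunit read alike on both. Of the 10 genes, 9 were measured on both arrays, with 11 of their 14 probes. At least 2-fold, 1 gene was higher, 1 was lower and 7 lay between. Over all 14254 measured genes, 1% were called higher and 5.89% lower by the same rule. Of the measured calpains 4 lay above 0 and 5 below, and their median difference was -0.00073 on the log2 scale, against 0.0043 over all genes. The SD over all measured genes was 0.53. Without Capn5 and Capn11, the 7 other genes ranged between -0.16 and 0.43, and 6 of the 9 lay within 0.2 of 0, as did 49.8% of all measured genes.

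**Figure D1:**
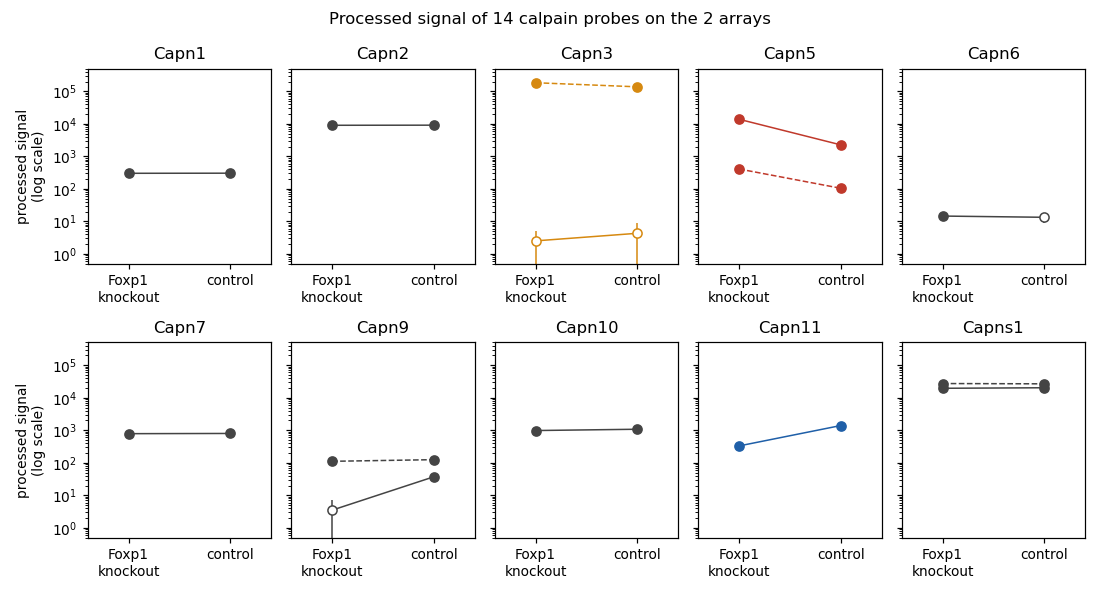
Processed signal (log scale) of each probe of the 10 calpain genes on the knockout array (left) and the control array (right). Lines join the readings of 1 probe, filled points are well above background, open points are not, and bars are the error given by the extraction software (a bar that reaches 0 runs to the axis). Both Capn5 probes slope down to the control array and the Capn11 probe slopes up; levels compare only within a probe.

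Capn1 and Capn2 encode the large subunits of the calpains first described, which need micromolar and millimolar calcium. Capn1 read 302 ± 30.3 in knockout lens and 304 ± 30.9 in control lens, a log2 difference of 0.00081 ± 0.21. Capn2 read 9027 ± 903 in knockout lens and 9101 ± 910 in control lens, a log2 difference of 0.00032 ± 0.20. Their small subunit Capns1, which stabilises both enzymes, was read by 2 probes. The first read 27314 in knockout lens and 26770 in control lens, a difference of 0.04, and the other read 19522 in knockout lens and 20275 in control lens, a difference of -0.04. For these 3 genes the readings on the arrays differed by less than the error of a single spot.

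Capn3 encodes a calpain known from skeletal muscle, where its loss causes a limb-girdle muscular dystrophy in humans. The probe for NM_007601 read 183407 ± 18341 in knockout lens and 137303 ± 13730 in control lens, which is 1.35-fold higher, a log2 difference of 0.43 ± 0.20. It lay above the 95th percentile of 0.39 for the 1426 genes in the highest of 10 signal classes, in which the median difference was 0.06. The probe for another transcript, NM_001177799, read 2.52 in knockout lens and 4.32 in control lens and was well above background on neither. The deposited files name each probe by an accession, so which splice forms each one covers, Lp82 included, is not known here. The muscle markers Myod1, Myog and Ckm were well above background on neither array, Acta1 read 62.2 in knockout lens and 118 in control lens, and Myh3 read 15.5 in knockout lens and 24.8 in control lens.

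**Figure D2:**
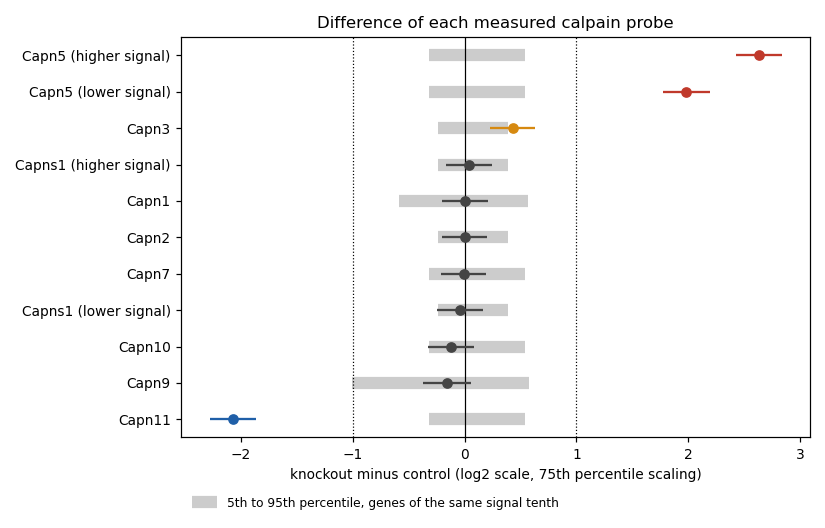
Knockout minus control difference (log2 scale) of the 11 calpain probes measured on both arrays, with bars for the error given by the extraction software. Grey bands span the 5th to 95th percentile of genes in the same of 10 signal classes, set by the mean over each gene's probes. Both Capn5 probes therefore share a band although their signals lie far apart. Dotted lines mark 2-fold. Both Capn5 probes lie above 1, Capn11 lies below -1, and Capn3 lies at the upper edge of its band.

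Capn5 encodes a calpain with a C2 domain in place of the penta-EF-hand, and variants of the human gene cause an inherited inflammatory disease of the retina and vitreous. Its probe of higher signal read 13821 ± 1382 in knockout lens and 2251 ± 225 in control lens, which is 6.19-fold higher, a log2 difference of 2.63 ± 0.20. Its other probe read 409 ± 41.0 in knockout lens and 104 ± 11.2 in control lens, a 3.95-fold higher signal and a log2 difference of 1.98 ± 0.21. The readings of both probes on the arrays were many times the spot error apart. The mean was 2.31 ± 0.46 (SD over 2 probes), or 4.95-fold, and Capn5 was rank 22 from the highest among the 14254 measured genes. Signal classes were set by the mean over the measured probes of a gene, which for Capn5 gave the 7th of 10. In that class the 5th percentile of the differences was -0.32 and the 95th was 0.54. The 2 Capn5 probes lay far apart in signal, so this class need not be that of either probe. Both probes were named by the same accession, NM_007602, so they share a transcript and are not independent samples of the difference.

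Omp, the gene of the olfactory marker protein, overlaps Capn5 in the GRCm38.p6 annotation. Its probe read 3757 ± 376 in knockout lens and 207 ± 21.1 in control lens, a log2 difference of 4.19, rank 1 from the highest. Whether transcription across the shared span contributes to either gene's reading was not tested. Of the genes next to the pair, Myo7a, an unconventional myosin gene, read 252 in knockout lens and 315 in control lens, a difference of -0.31. B3gnt6, on the other side, read 9.95 in knockout lens and 5.05 in control lens and was well above background on neither array. All 12 retina and neuron markers were measured, 1 was at least 2-fold higher and 11 lay between the limits. Over all measured genes, 1% were called higher. Of the 12, 11 lay above 0, as did 50.7% of all measured genes, the median was 0.39, and their summed signal was 10297 in knockout lens and 7428 in control lens. Pou4f2, a factor of retinal ganglion cells, was the marker past 2-fold, at 275 in knockout lens and 110 in control lens. The part of such cells in the Capn5 reading was not tested, and in bulk RNA more cells of a type and more RNA per cell cannot be told apart.

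Capn11, a calpain described chiefly from testis, was read by 1 probe. It read 330 ± 33.1 in knockout lens and 1400.1 ± 140.1 in control lens, which is 4.21-fold lower, a log2 difference of -2.07 ± 0.20. Capn11 was rank 106 from the lowest among all measured genes, and 1 of the 105 genes below it was at or above the median signal of measured genes. It lay in the same signal class as Capn5, where 6 of 1426 genes were at least 2-fold lower and 14 were at least 2-fold higher. Both readings were well above background, and a spike-in RNA added at a level with signals of 264 in knockout lens and 280 in control lens differed by -0.13. Another, at 485 in knockout lens and 566 in control lens, differed by -0.23, and one with signals of 1495 in knockout lens and 1568 in control lens differed by -0.04. The neighbouring gene Tmem63b, which encodes a membrane channel protein, had a difference of 0.20 over 2 probes. Mymx, on the other side and a gene of myoblast fusion, read 4.55 in knockout lens and 53.1 in control lens and was not well above background on the knockout array. With 1 probe on 1 array per genotype, the Capn11 difference had no second reading.

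The Capn5 and Capn11 readings were also set against their surroundings on the slide. Spots within 10 rows and 5 columns of each probe had median differences of -0.08 and -0.04 around the 2 Capn5 probes (134 and 119 spots) and -0.05 around the Capn11 probe (112 spots). The difference of Capn5 was 4.38 above that of Capn11 on the log2 scale, and between 3.88 and 4.70 above it over all settings. Any constant shift between the arrays leaves this gap as it is. The 2 genes were the highest and lowest of the measured calpains, so a wide gap between them follows from the choice.

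**Figure D3:**
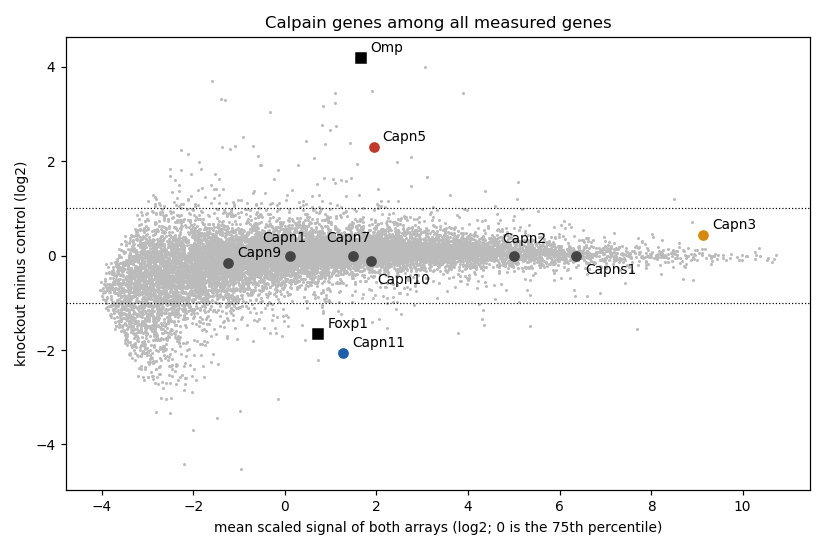
Knockout minus control difference (log2) against the mean scaled signal of both arrays (log2, with 0 at the 75th percentile) for the 14254 measured genes in grey. Calpain genes are circles, Omp and the targeted gene Foxp1 are squares, and dotted lines mark 2-fold. Capn5 and Capn11 lie on opposite sides of the cloud, and dim genes on the left spread towards negative values.

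The atypical calpains Capn7 and Capn10 also read nearly alike on both arrays. Capn7, which binds the ESCRT machinery of membrane scission, read 786 ± 78.6 in knockout lens and 798 ± 79.9 in control lens, a log2 difference of -0.0098 ± 0.20. Capn10, a gene linked to type 2 diabetes risk in humans, read 981 ± 98.1 in knockout lens and 1076 ± 108 in control lens, a log2 difference of -0.12 ± 0.20. Both genes lay in the same signal class as Capn5 and Capn11. Of the genes next to Capn10, Rnpepl1 had a difference of -0.05, and Gpr35, an orphan receptor gene, had a difference of -1.63 at dim signals of 18.4 in knockout lens and 70.6 in control lens, which was short of 2-fold under 5 of 9 other settings (-0.76 to -0.51).

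Capn9 and Capn6 were dim. Capn9, known from the digestive tract, was read by 2 probes. The first read 111 ± 11.4 in knockout lens and 125 ± 13.4 in control lens, a log2 difference of -0.16 ± 0.21. The other read 3.50 on the knockout array, not well above background, and 37.2 on the control array, so it was at least 3.04-fold lower against 12.1, the dimmest knockout spot with that flag. Spike-in RNAs of that range also read lower on the knockout array, at 6.86 in knockout lens against 52.9 in control lens, and at 38.3 in knockout lens against 81.0 in control lens. Agt, the angiotensinogen gene next to Capn9, had a difference of -1.33, also at dim signals of 25.8 in knockout lens and 65.1 in control lens, and was short of 2-fold under 5 of 9 other settings (-0.67 to -0.24). Capn6, a calpain that lacks the catalytic cysteine and binds microtubules, read 14.6 ± 3.04 on the knockout array, where it was well above background, and 13.4 ± 4.68 on the control array, where it was not. The dimmest control spot well above background read 20.6, so no fold is given for Capn6.

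Genes with the most similar pair of signals were found by the distance between scaled log2 signals on the 2 arrays. For Capn5 the closest were Upp1, a uridine phosphorylase gene, with a difference of 1.95, Phlda3, an inhibitor of Akt, with 1.42, and Pros1, protein S, with 2.38, at distances of 0.56, 0.64 and 0.72. For Capn11 the closest was Clic5, a gene of the chloride intracellular channel family, with a difference of -2.03 at a distance of 0.14. Rab38, a small GTPase gene of pigment granule formation, and Crhbp, a binding protein of corticotropin-releasing hormone, followed at distances of 0.60 and 0.61, with differences of -1.23 and -1.33. Genes picked by this distance have similar differences by construction, so their differences add nothing to those of Capn5 and Capn11. The distance also compares levels between probes, which is not reliable, and for Capn5 it starts from the mean of 2 probes far apart in signal. With 1 array per genotype this likeness rests on a single pair of readings.

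Of the other calpain family genes, Capn8, Capn12, Capn13 and Capn15, 2 were measured, of which 0 were higher and 1 was lower. By the same rule 1% of all measured genes were called higher and 5.89% lower. Capn12, a calpain of the hair follicle, was 2.20-fold lower at dim signals of 17.0 in knockout lens and 37.7 in control lens, and its difference of -1.14 lay between -0.95 and 0.20 under 6 of 9 other settings, with 0.20 under quantile normalization. Capn15, the mouse homologue of a fly protein needed for optic lobes, had a difference of -0.71, from 42.2 in knockout lens and 69.4 in control lens. The Capn15 difference was -0.21 with loess and 0.02 with quantile normalization. With the median of all genes under each setting taken off, Capn15 lay between -0.73 and -0.04. The class of lowest signal, which held Capn12, had a median difference of -0.61 and the next class, which held Capn15, one of -0.36. In the class of Capn12, 30.4% of genes were at least 2-fold lower. Capn8 and Capn13 were well above background on neither array. Capns2, the second small subunit gene, read 3.77 in knockout lens and 30.4 in control lens, at least 2.49-fold lower in the same dim range. The inhibitor gene Cast read 218 ± 22.0 in knockout lens and 177 ± 18.6 in control lens, a log2 difference of 0.31 ± 0.21, which lay between the limits. Of the penta-EF-hand relatives Pdcd6, Sri, Pef1 and Gca, 3 were measured and 0 passed 2-fold, with differences of 0.07 for Pdcd6, -0.05 for Sri and 0.10 for Pef1.

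Transcripts of proteins that calpains cut stayed within 2-fold, as did 93.1% of all measured genes. All 14 genes in the list of such lens proteins were measured, 0 were higher and 0 lower, and the median difference was -0.02, with 5 above 0 and 9 below. The water channel gene Mip read 108912 in knockout lens and 130481 in control lens, a difference of -0.25, and the connexin gene Gja3 had a difference of -0.18. The beta crystallin gene Crybb3 had a difference of -0.13. Of 12 cytoskeletal substrates 0 passed 2-fold in either direction, with a median of 0.04. Mapt, the microtubule protein tau, had a difference of 0.78 and cortactin, Cttn, one of 0.54, while talin, Tln1, and vinculin, Vcl, had mean differences of -0.36 and -0.35. For these last genes the 2 probes disagreed in direction, at 0.14 and -0.86 for Tln1 and at 0.16 and -0.86 for Vcl, with the negative value from the dimmer probe.

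Of the genes that set or sense calcium, Itpr2 and S100a10 were at least 2-fold higher under all 10 other settings too. Of 26 genes of calcium entry and clearance 20 were measured, 1 was higher and 1 was lower, with a median of 0.07. Over all measured genes, 1% were called higher and 5.89% lower. Itpr2, a receptor that releases calcium from the endoplasmic reticulum, read 9241 in knockout lens and 3606 in control lens, 2.58-fold higher. Slc8a1, a sodium and calcium exchanger, was 3.56-fold lower at dim signals of 17.0 in knockout lens and 61.1 in control lens, and its difference of -1.83 lay between -0.96 and -0.68, short of 2-fold, under 5 of 9 other settings. Trpv4, a calcium-permeable channel, had a difference of -0.89, and Slc8a3, another exchanger, one of -0.67, each the mean of 2 probes. The probes differed in size, at -0.34 and -1.44 for Trpv4 and at -0.12 and -1.23 for Slc8a3. The larger fall came from the dimmer probe, at 23.6 in knockout lens and 64.8 in control lens for Trpv4. For Slc8a3 that probe read 28.4 in knockout lens and 67.1 in control lens. All 13 calmodulins and calcium binders were measured, 1 was higher and 0 were lower. Of the 13, 10 lay above 0, as did 50.7% of all measured genes, and the median was 0.24. S100a10, the partner of annexin A2, read 1132 in knockout lens and 376 in control lens, 3.04-fold higher. The related S100a11, S100a6 and S100a4 had differences of 0.58, 0.49 and 0.37.

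**Figure D4:**
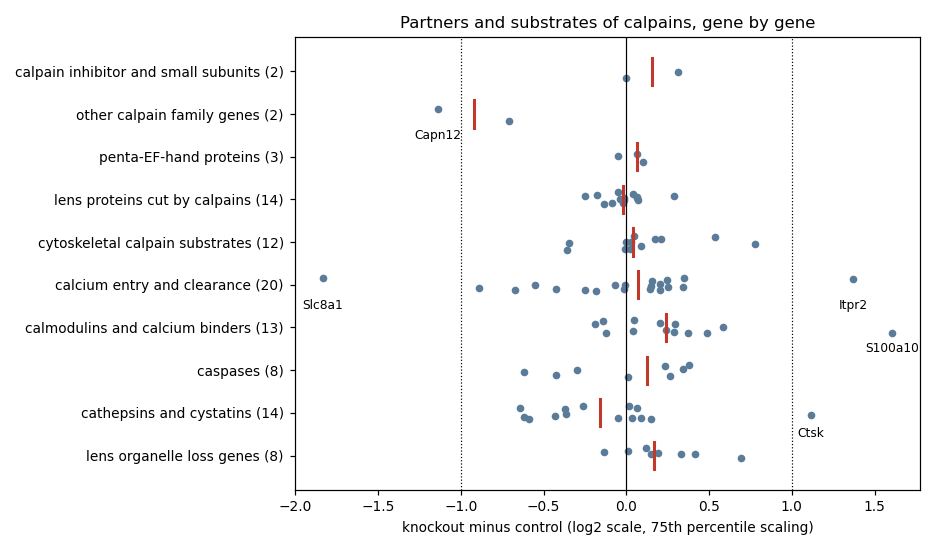
Knockout minus control difference (log2 scale) of each measured gene in the lists of calpain partners, substrates and other proteases, with the number measured in brackets and the list median as a red bar. Dotted lines mark 2-fold, and genes past it are named. Itpr2, S100a10 and Ctsk lie above the limit, and Slc8a1 and Capn12 below it.

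Other proteases were mostly within the limits. Of 10 caspases 8 were measured and 0 passed 2-fold, with a median of 0.12. Casp4, an inflammatory caspase, had a difference of -0.42 at dim signals. Of 16 cathepsins and cystatins 14 were measured, 1 passed 2-fold upwards and none downwards (0), with a median of -0.16. Over all measured genes, 1% passed 2-fold upwards and 5.89% downwards. Ctsk, cathepsin K, was 2.16-fold higher at dim signals of 61.2 in knockout lens and 28.5 in control lens. Its difference of 1.11 lay between 0.26 and 0.99, short of 2-fold, under 3 of 9 other settings, and reached 2.20 with array medians. Ctsw and Ctss lay at -0.64 and -0.62, at dim signals of 45.2 and 52.6 in knockout lens and 71.1 and 81.3 in control lens. Ctsh lay at -0.59, with brighter signals of 528 in knockout lens and 799 in control lens. The collagen genes Col1a1 and Col3a1, markers of mesenchyme, were also higher, at similarly dim signals of 63.8 and 94.2 in knockout lens and 31.2 and 33.5 in control lens. Of the 9 mesenchyme and muscle markers 4 were measured, 2 were higher and 0 were lower. The other 2 measured, Acta1 and Myh3, lay below 0, at -0.91 and -0.67. Dcn and Lum were well above background on the knockout array alone. The summed signal of all 9, dim readings included, was 465 in knockout lens and 257 in control lens. Of this, Dcn gave 158 in knockout lens and 22.2 in control lens. The part of such cells in the Ctsk reading was not tested. Of 9 genes of organelle loss in lens fibres 8 were measured and 0 passed 2-fold. Of the 8, 7 lay above 0, as did 50.7% of all measured genes, and the median was 0.17. Plaat1, a phospholipase family gene, had a difference of 0.70, the receptor gene Epha2 one of 0.42 and the heat shock factor Hsf4 one of 0.33.

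The call for Capn5 held under all 10 other settings tried, and that for Capn11 under 9 of them. Scaling by array medians raised the median of all genes by 1.08, and under it Capn11 had a difference of -0.99, just short of 2-fold, while 6 calpain genes, Capn5 among them, were at least 2-fold higher, against 8767 of all 14254 genes. With the median of all genes under each setting taken off, Capn5 lay between 2.09 and 2.60 and Capn11 between -2.21 and -1.79. On the same footing Capn1 lay between -0.08 and 0.16, Capn2 between -0.12 and 0.16 and Capns1 between -0.09 and 0.16. Capn3 lay between 0.35 and 0.51 under the settings that leave out its probe at background, and at -0.0052 when that probe was averaged in.

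**Figure D5:**
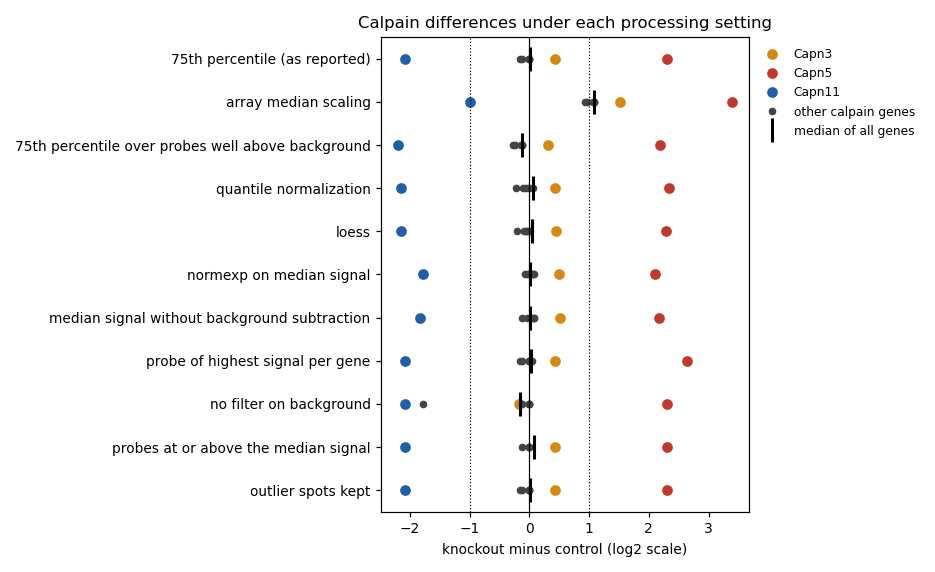
Knockout minus control difference (log2 scale) of each calpain gene as reported and under 10 other processing settings, with the median of all genes as a black bar and dotted lines at 2-fold. Capn5 lies between 2.11 and 3.39, Capn11 lies between -2.20 and -0.99, and scaling by array medians moves the calpain genes upwards with the median of all genes.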

How the data were processed

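The 2 files are the authors' deposited scanner output, and the values used are spot intensities on a linear scale that, per the file headers, Agilent Feature Extraction 10.7.3.1 produced with background subtraction and no recorded scaling between arrays. The flags for background, saturation and outlier spots are other deposited columns of the same files. Control spots and 263 gene spots with an outlier flag on either array were left out. The log2 processed signal minus the array's 75th percentile was averaged over the spots of a probe, and then over the probes of a gene with more than 50% of spots well above background on both arrays. Probes laid out on mm9 were named through RefSeq accessions of GRCm38.p6, which named 27225 of 55655 probes. Spot noise came from 281 probes printed at least 5 times, with a pooled SD of the difference of 0.17 on the log2 scale, and of 0.28 in the dimmest of 5 classes. The calling step was tested on simulated data. Intensities limit precision through the number of arrays, 1 per genotype, so no test was run.

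The members and the gene lists were chosen with earlier results of these data known. Genes named are the calpains, calpastatin, Foxp1, genes that overlap or adjoin a calpain where one of them passed 2-fold, from each list the 4 most different measured genes and any past 2-fold, and the 3 genes most alike Capn5 and Capn11; a few genes that this rule takes are not reported here. A few further genes (B3gnt6, Rnpepl1, Mymx, Tmem63b and muscle markers) are named for context, after their values were seen. In all 10 other settings were run, using limma 3.58.1 for quantile, loess and normexp (offset 50), and Python 3.11.15 for the rest.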

Additional observations from a re-analysis of the deposited data

How the results depend on the processing

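No paired analysis was possible because each genotype had 1 array, and for the same reason no array could be left out. Of 10 other settings, 8 were planned and 2 were added after the data were seen. The 2 planned settings on the mean spot signal were not run, because the files used here hold no mean signal, and versions on the median signal took their place. Scaling by array medians gave 6 calpain genes at least 2-fold higher and 0 lower, with differences of 3.39 for Capn5 and -0.99 for Capn11, as it raised all genes by 1.08. The 75th percentile over probes well above background gave 2.18 for Capn5 and -2.20 for Capn11. Normexp correction of the median signal gave 2.11 for Capn5 and -1.77 for Capn11, and the median signal without background subtraction gave 2.18 for Capn5 and -1.82 for Capn11. The probe of highest signal alone gave 2.63 for Capn5. With no filter on background 2 calpain genes were at least 2-fold lower, because the dim probe of Capn9 entered its mean and took it to -1.78. Capn12 turned to 0.20 under quantile normalization, and the cause was not tested. The 2-fold calls of Slc8a1, Agt and Gpr35 were lost with array medians, quantile normalization, loess, normexp and no background subtraction. That of Ctsk was lost with normexp (0.27), with no background subtraction (0.26) and with the percentile over probes well above background (0.99), and that of Foxp1 with array medians (-0.58). The other 28 comparisons of the 2 counts and of Capn5 and Capn11 kept their values within the spot SD, or their counts. Calls over all genes, 143 higher and 839 lower as reported, were 8767 and 100 with array medians, 103 and 1079 with the percentile over probes well above background, 774 and 233 with quantile normalization, 405 and 290 with loess, 72 and 100 with normexp, 79 and 219 without background subtraction, 290 and 4479 with no filter and 79 and 46 over probes at or above the median signal. Dim signals limit Capn6, Capn9 and Capn12, and Capn11 rests on 1 probe.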
